A study of Mus musculus with 36 samples.

Results

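The cerebellum of mice labelled tg-/- was compared with that of mice labelled tg+/+, with 3 arrays in each group. These 6 arrays were drawn from 36, which cover 3 mutant lines (tg, stg and lh), a -/- and a +/+ genotype in each line, and the cerebellum and the forebrain, in 12 groups of 3. All 45037 probe sets outside the array maker's AFFX controls were members, of 45101 on the array, and 27022 passed a filter on dim signals and were tested. The groups used here are tg-/- cerebellum and tg+/+ cerebellum, then tg-/- forebrain and tg+/+ forebrain for the comparison of tissues, and the -/- and +/+ cerebellum of stg and lh for the comparison of lines. The tg line was read as tottering, since that is how the symbol is used for mouse mutants. Per the labels each array holds total RNA of mouse tissue, and whether the tissues of a group came from the same mice is not stated. Age, sex and genetic background are not given in the labels, so the mutation cannot be told apart from any other difference in background between tg-/- and tg+/+ mice.

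Tottering is a missense mutation of Cacna1a, the pore-forming subunit of the P/Q-type calcium channel, and the mice have ataxia, attacks of abnormal movement and absence seizures. P/Q-type channels admit the calcium that drives transmitter release at most central synapses, and in Purkinje cells, the output neurons of the cerebellar cortex, they carry most of the calcium current and shape regular firing. Purkinje cells receive granule cell input, are inhibited by molecular layer interneurons and are wrapped by Bergmann glia. Tyrosine hydroxylase in a subset of Purkinje cells is a long-known feature of tottering and related mutants, which is background here and not a result.

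The tissue labels matched their defining markers. Gabra6, the granule cell GABA-A receptor subunit, gave signals of 6343 to 7200 in tg-/- cerebellum and 7941 to 9171 in tg+/+ cerebellum, against 12.02 to 120.5 in tg-/- forebrain and 2.83 to 22.02 in tg+/+ forebrain. Pcp2, a Purkinje cell protein, gave 6905 to 8376 in tg-/- cerebellum and 7288 to 8405 in tg+/+ cerebellum. Sex is not in the labels, but the female transcript Xist read 14.35 to 26.27 in tg-/- and 19.12 to 22.61 in tg+/+ cerebellum. The Y-linked Eif2s3y read 440 to 490 in tg-/- and 469 to 510 in tg+/+ cerebellum, a male pattern in both groups. Cacna1a itself has 4 probe sets, of which 1 was below the filter. The brightest read 430, 348 and 284 in tg-/- cerebellum, against 485, 272 and 247 in tg+/+ cerebellum. These groups overlapped, and the 3 tested probe sets differed by -0.28, 0.13 and 0.24 on the log2 scale without passing. A level of the transcript does not check a missense label. The 3' minus 5' log2 difference of the Gapdh control averaged -0.404 ± 0.054 in tg-/- cerebellum and -0.403 ± 0.048 in tg+/+ cerebellum (SD, n = 3 each; two-sided exact permutation p = 1), and that of Actb gave exact p = 0.6, where 3 arrays against 3 cannot go below 0.1.

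In tg-/- cerebellum 155 probe sets differed from tg+/+ at adjusted p 0.05 (limma, Benjamini-Hochberg over all 27022), which is 0.574% of those tested. Of these, 93 were higher in tg-/- (0.344%) and 62 lower (0.229%). The 118 that carry a single gene symbol stand for 107 genes. The signals of all 155 did not overlap between the 3 tg-/- and the 3 tg+/+ arrays, where 14.0% of all tested probe sets did not, a share that says nothing more here because the call used the same arrays. Changes are differences of log2(signal + 2.98), so a change of 1 is a doubling well above the floor, and the size of a change is not reliable for a probe set near the floor. The number of calls fell whichever of the 6 arrays was left out, and how much of this comes from fewer arrays was not tested. It was 70 without tg-/- replicate 2, 81 without tg-/- replicate 3, and 85, 63 and 74 without tg+/+ replicates 1, 2 and 3. It stayed highest without tg-/- replicate 1. In all, 47 of the 155 passed whichever of the 6 arrays was left out.

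The same contrast in the forebrain sorted these calls. In tg forebrain 51 probe sets passed (0.189% of those tested). Of the cerebellar calls 37 passed in forebrain with the same sign, which is 23.9% of the cerebellar and 72.5% of the forebrain calls. These counts fell too when 1 tg array was left out, to 13 to 36 in forebrain and 10 to 30 in both tissues, each lowest without tg-/- forebrain replicate 3. With no intensity trend they were 27 and 12. A direct test of the tg effect in cerebellum minus that in forebrain passed for 7 probe sets (0.0259%), and none of these passed in forebrain. The other 111 did neither. Of the 146 cerebellar calls measured in forebrain 132 had the same sign there. Among the 111, the forebrain change was of the same sign and at least 0.5 times as large in 59, 0.25 to 0.5 times in 18 and under 0.25 times in 15, and it was of opposite sign in 10, and below the filter in 9. For these 111 the forebrain result therefore does not say whether a change is shared, and a change that did not pass there is not shown to be absent.

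**Figure D1:**
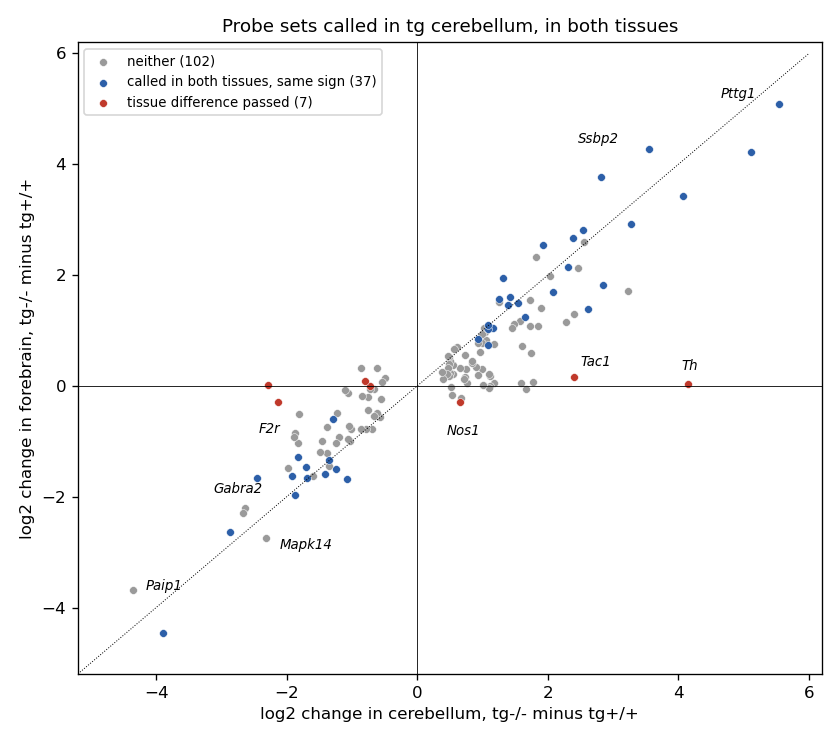
Log2 change in tg-/- minus tg+/+ cerebellum (horizontal axis) and forebrain (vertical axis) of the 146 called probe sets measured in both tissues. The 37 probe sets called in both tissues lie near the dotted line of equal change, and the 7 whose effect differed between tissues lie near the horizontal line, with Th at 4.15 in cerebellum and 0.03 in forebrain.

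The 7 probe sets with a tissue difference stand for 6 genes. Higher in tg-/- cerebellum were Th (tyrosine hydroxylase, the rate-limiting enzyme of catecholamine synthesis), Tac1 (the precursor of substance P and neurokinin A) and Nos1 (neuronal nitric oxide synthase). Lower were F2r (the thrombin receptor PAR1), Stmn1 (stathmin, which destabilises microtubules) and Dipk1a (a protein kinase-like transmembrane protein). The 250 bases before the start site of Th, Tac1 and F2r, the largest changes of this set, are given to show what precedes them, from RefSeq on mouse GRCm38.p6. Capitals mark TGACGTCA, the full cyclic AMP response element bound by CREB, and TGACG, its core, on either strand, where it reads CGTCA. The Th window is chr7:142899996-142900245 on the minus strand, that of Tac1 chr6:7554811-7555060 on the plus strand and that of F2r chr13:95618467-95618716 on the minus strand.
Th: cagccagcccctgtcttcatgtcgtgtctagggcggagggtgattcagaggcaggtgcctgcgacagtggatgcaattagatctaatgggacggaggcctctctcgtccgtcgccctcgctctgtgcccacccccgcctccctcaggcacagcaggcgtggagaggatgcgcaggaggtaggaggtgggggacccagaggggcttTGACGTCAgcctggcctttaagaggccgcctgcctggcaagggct
Tac1: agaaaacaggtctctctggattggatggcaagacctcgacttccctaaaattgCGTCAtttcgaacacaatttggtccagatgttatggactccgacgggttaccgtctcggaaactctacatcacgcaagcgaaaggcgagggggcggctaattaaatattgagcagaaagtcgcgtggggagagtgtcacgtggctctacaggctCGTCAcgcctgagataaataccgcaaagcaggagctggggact
F2r: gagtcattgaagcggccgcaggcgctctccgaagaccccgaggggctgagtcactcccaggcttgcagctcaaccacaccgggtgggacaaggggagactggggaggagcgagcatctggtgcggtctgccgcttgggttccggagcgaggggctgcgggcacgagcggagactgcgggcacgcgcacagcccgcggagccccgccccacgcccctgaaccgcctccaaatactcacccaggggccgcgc

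TGACGTCA, which reads the same on both strands, was found once in the Th window, 45 to 38 bases before the start, and in 1.55% of the 32851 windows of this length. The 2 matches to TGACG counted in Th both lie inside it. In Tac1 TGACG lay 197 to 193 and 43 to 39 bases before the start, and it was present in 17.8% of all windows. CACGTG, the E-box searched as well, was found once in Tac1, 61 to 56 bases before the start, and in 6.02% of all windows. The F2r window held none of the 3, and the Nos1 window held TGACG once. These are letter matches, not measured binding sites.

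Th showed the largest of the tissue differences. Its probe set read 551, 606 and 617 in tg-/- cerebellum, against 31.3, 30.5 and 29.9 in tg+/+ cerebellum. In forebrain it read 168, 130 and 145 in tg-/- mice, against 153, 143 and 136 in tg+/+ mice. All 3 tg-/- cerebellum arrays thus lay above every forebrain array of the line, while the tg+/+ cerebellum arrays lay below all of them. The change was 4.15 in cerebellum (SE 0.20, adjusted p = 6.96e-10) and 0.03 in forebrain (SE 0.18, adjusted p = 0.995), a difference between tissues of 4.11 (SE 0.27, adjusted p = 2.04e-11). Of 20 catecholamine genes of the list on the array 11 were measured, and Th was the only one of these to pass. Ddc, which makes dopamine from L-DOPA, was at 0.08 (SE 0.22), and the degrading enzymes Maoa and Maob at 0.02 and 0.29. Dbh, which makes noradrenaline, was at -0.20 (SE 0.53), and the noradrenaline transporter Slc6a2 at -0.32 (SE 0.39). Both were dim, with Dbh averaging 37.1 in tg-/- and 47.4 in tg+/+ cerebellum, and Slc6a2 26.5 and 34.7. Across settings and left-out arrays Dbh ran from -0.89 to 0.31 and Slc6a2 from -0.57 to -0.09. The values of Dbh and Slc6a2 are therefore too imprecise to show an absence of change. The list's median was 0.02, against 0.00 over all 12201 genes tested.

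Tac1 moved in the same direction from a lower level. It read 121, 122 and 110 in tg-/- cerebellum, against 19.2, 15.9 and 25.02 in tg+/+ cerebellum. In forebrain, where Tac1 is abundant, it read 922, 931 and 826 in tg-/- mice, against 828, 691 and 892 in tg+/+ mice. The lowest tg-/- cerebellum array was over 4 times the highest tg+/+ one, and the forebrain groups overlapped. The change was 2.40 in cerebellum (SE 0.28, adjusted p = 0.000192) and 0.16 in forebrain, a difference of 2.25 (SE 0.28, adjusted p = 8.61e-05). Of 19 neuropeptides and secreted factors measured, Tac1 alone passed. At an unadjusted p under 0.05 (limma) 7 of the 19 differed, 5 above 0 and 2 below, against 8.25% of all genes. Bdnf, a neurotrophin, was at -0.92 without passing (adjusted p = 0.17), and the list's median was 0.13.

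Nos1 makes nitric oxide in granule cells and molecular layer interneurons. It read 529, 491 and 495 in tg-/- cerebellum, against 362, 290 and 313 in tg+/+ cerebellum. In forebrain the order turned, with 241, 210 and 205 in tg-/- mice and 261, 301 and 241 in tg+/+ mice. The change was 0.65 in cerebellum (SE 0.12, adjusted p = 0.0125) and -0.28 in forebrain, which did not pass, and the difference was 0.93 (SE 0.17, adjusted p = 0.0261). The gene's other 2 measured probe sets were at 0.29 and 0.52 in cerebellum without passing. The cerebellar call for Nos1 held in 2 of the 6 fits that leave out a cerebellar array, and its difference between tissues in 3 of the 12 that leave out a tg array, those without tg+/+ cerebellum replicate 1, tg-/- forebrain replicate 1 and tg+/+ forebrain replicate 3. In the other 9 its adjusted p was 0.0511 to 0.137.

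F2r was the clearest fall. Its brighter probe set read 84.2, 112 and 108 in tg-/- cerebellum, against 332, 508 and 546 in tg+/+ cerebellum. In forebrain it read 159, 195 and 223 in tg-/- mice, against 233, 202 and 271 in tg+/+ mice. Every tg-/- cerebellum array was below every array of the other 3 tg groups. The change was -2.13 in cerebellum (SE 0.21, adjusted p = 4.32e-05) and -0.29 in forebrain, a difference of -1.84 (SE 0.28, adjusted p = 0.00177). The other F2r probe set changed by -2.28 in cerebellum and 0.01 in forebrain, a difference of -2.29 (SE 0.39, adjusted p = 0.0104). Its difference was lost without tg-/- cerebellum replicate 3, tg+/+ cerebellum replicate 1 or tg+/+ forebrain replicate 2, with adjusted p from 0.050004 to 0.0769, while that of the brighter probe set passed in all 12 such fits.

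Stmn1 read 3429, 3021 and 2750 in tg-/- cerebellum, against 5320, 4948 and 4938 in tg+/+ cerebellum. In forebrain all 6 arrays lay between 6130 and 6785. The cerebellar change was -0.73 (SE 0.11, adjusted p = 0.00228) and the difference between tissues -0.73 (adjusted p = 0.0261). The gene's other measured probe set was at -0.19. Dipk1a read 509, 488 and 483 in tg-/- cerebellum, against 879, 860 and 838 in tg+/+ cerebellum. In forebrain it read 298 to 398 with the groups overlapping. Its change was -0.80 in cerebellum (SE 0.08, adjusted p = 0.000119) and 0.09 in forebrain, a difference of -0.89 (adjusted p = 0.0172). Both cerebellar changes passed in all 6 fits that leave out an array. The tissue difference of Stmn1 was lost in 9 of 12 such fits (adjusted p 0.0607 to 0.193) and also with no filter or no intensity trend, and the left-out arrays it held without were tg-/- cerebellum replicate 1, tg-/- forebrain replicate 2 and tg+/+ forebrain replicate 1. That of Dipk1a was lost in 8 of 12 (0.050004 to 0.0969) and held without those 3 arrays or without tg+/+ cerebellum replicate 3.

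**Figure D2:**
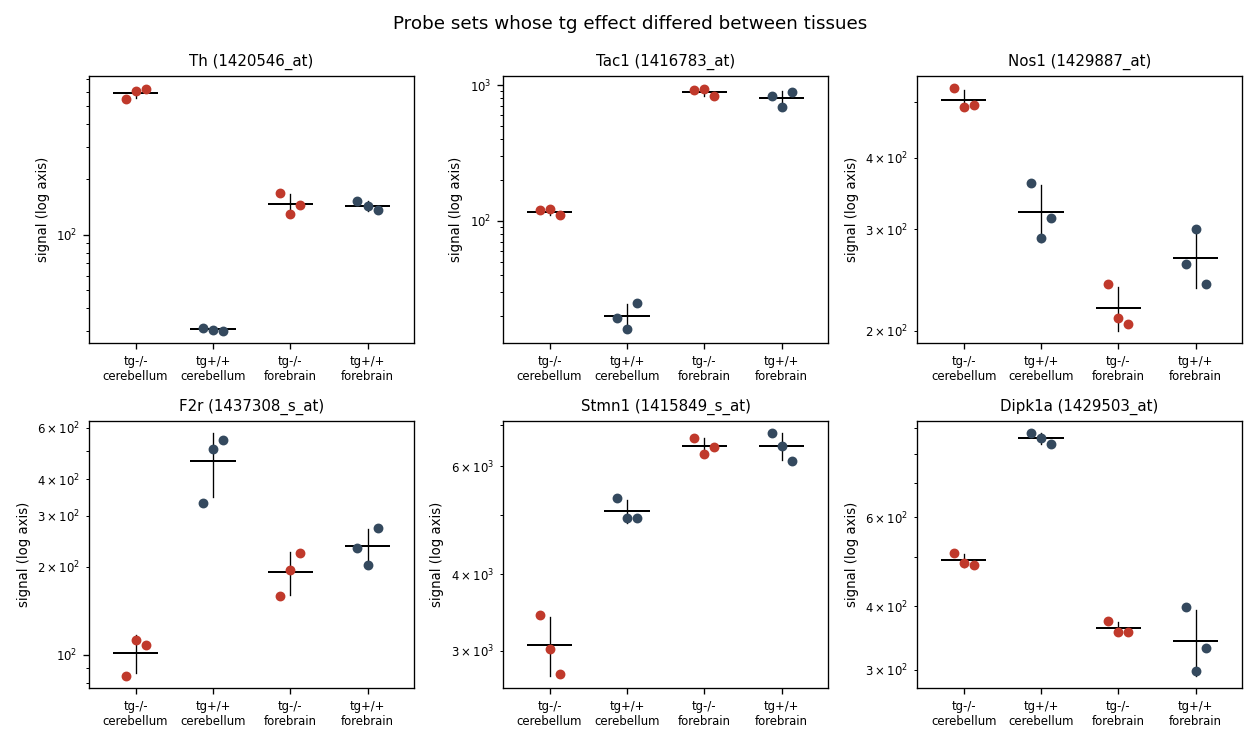
Signal of each array (points, log axis) for the 6 genes with a tissue difference, with the mean (horizontal bar) and SD (vertical line) of 3 arrays, in tg-/- and tg+/+ cerebellum and tg-/- and tg+/+ forebrain. Th sits at 551 to 617 in tg-/- cerebellum and 29.9 to 31.3 in tg+/+ cerebellum, with the forebrain groups between them.

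The cerebellum of the other lines gave a second point of reference. Th averaged 591 ± 35.6 in tg-/- cerebellum and 30.6 ± 0.671 in tg+/+, 48.5 ± 5.001 in stg-/- and 42.5 ± 15.1 in stg+/+, and 535 ± 52.1 in lh-/- and 47.8 ± 10.1 in lh+/+ (SD, n = 3 each). Th was therefore high in tg-/- and lh-/- arrays and low in the other 4 groups. Tac1 was likewise higher in tg-/- and lh-/- than in the other 4 groups, with 117 ± 6.55 in tg-/- and 20.04 ± 4.62 in tg+/+, 31.7 ± 13.7 in stg-/- and 30.5 ± 4.65 in stg+/+, and 133 ± 44.7 in lh-/- and 37.6 ± 4.54 in lh+/+. Nos1 was highest in stg-/-, at 505 ± 20.7 in tg-/- and 322 ± 36.6 in tg+/+, 1397 ± 94.98 in stg-/- and 460 ± 12.9 in stg+/+, and 445 ± 51.5 in lh-/- and 346 ± 57.2 in lh+/+. F2r was 101.3 ± 14.95 in tg-/- and 462 ± 114 in tg+/+, 441 ± 84.3 in stg-/- and 335 ± 51.1 in stg+/+, and 102 ± 12.96 in lh-/- and 142 ± 39.7 in lh+/+. Low F2r signal was thus also found in lh+/+ mice. Dipk1a was high in tg+/+ alone, at 859 ± 20.4, while tg-/- (493 ± 13.96) lay within the 454 to 610 of the 12 stg and lh arrays. Stmn1 was 3067 ± 342 in tg-/- and 5069 ± 218 in tg+/+, 3420 ± 342 in stg-/- and 3077 ± 370 in stg+/+, and 5460 ± 440.2 in lh-/- and 6311 ± 641 in lh+/+, so both stg groups lay near tg-/-.

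The tg effect minus the mean of the stg and lh effects passed for 44 probe sets (0.163% of those tested), of which 37 were among the 155. Th passed at 2.32 (SE 0.24, adjusted p = 0.000195), F2r at -2.11 and -2.42, Stmn1 at -0.70 and Dipk1a at -0.68. Tac1 (1.56, adjusted p = 0.0773) and Nos1 (-0.33, adjusted p = 0.864) did not pass. Of the 155, the 3 tg-/- arrays lay beyond all 15 other cerebellum arrays in 33, where 1.11% of tested probe sets did. The 3 tg+/+ arrays lay beyond all others in 32, where 0.537% did. In 1 probe set, of the muscle membrane protein gene Sspn, both held, so 91 probe sets had neither genotype outside the range of the other lines. These shares stand on arrays that also made the calls.

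**Figure D3:**
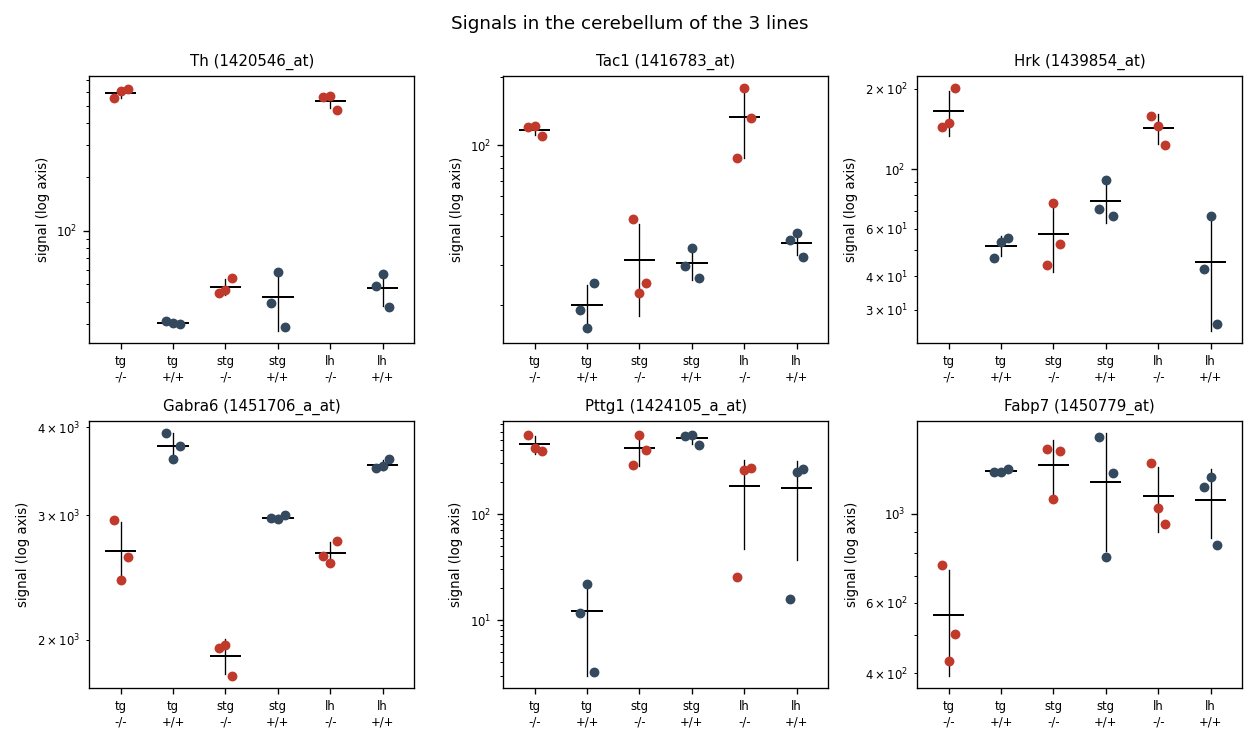
Signal of each cerebellum array (points, log axis) of the tg, stg and lh lines for 6 genes, with mean (bar) and SD (line) of 3 arrays. Th, Tac1 and Hrk are high in tg-/- and lh-/- mice, Pttg1 is low in all 3 tg+/+ arrays and in 1 array of each lh group, and Fabp7 is low in tg-/- mice.

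The 37 probe sets called in both tissues comprised 24 higher and 13 lower in tg-/-, and their 26 named probe sets stand for 22 genes. In 36 of the 37 the forebrain change was at least 0.5 times the cerebellar one. Pttg1 (securin, the inhibitor of separase in cell division) rose most. One of its probe sets read 2236, 2156 and 2234 in tg-/- cerebellum, against 44.5, 61.9 and 31.2 in tg+/+ cerebellum. Forebrain gave the same picture, with 2338, 2403 and 2499 in tg-/- mice and 43.9, 83.5 and 84.1 in tg+/+ mice. The changes were 5.55 in cerebellum (SE 0.93, adjusted p = 0.00697) and 5.10 in forebrain, and a second Pttg1 probe set gave 5.11 and 4.22. The remaining one was at 3.23 in cerebellum, where it passed, and 1.71 in forebrain, where it did not. In the stg line the second probe set averaged 416 in -/- and 520 in +/+ cerebellum, near the 455 of tg-/- cerebellum and far above the 12.2 of tg+/+. In the lh line 1 array of each genotype was low as well, at 25.3 in lh-/- and 15.6 in lh+/+, and the other 4 read 252 to 272.

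Of the 24 probe sets higher in both tissues, 5 averaged a signal under 20 in tg+/+ cerebellum. Ssbp2, a single-stranded DNA binding protein, read 70.7, 198 and 208 in tg-/- cerebellum, against 9.80, 8.03 and 10.8 in tg+/+ cerebellum. Tmem267, a membrane protein, read 177, 126 and 105 in tg-/- and 23.5, 13.3 and 14.02 in tg+/+ cerebellum. Rcn2, a calcium-binding protein of the secretory pathway, read 61.8, 103 and 109 in tg-/- and 16.7, 10.7 and 11.7 in tg+/+ cerebellum. None of these groups overlapped, and the cerebellar changes were 3.55, 2.81 and 2.53, with 4.28, 3.77 and 2.82 in forebrain. Ssbp2 passed in 1 of 6 fits that leave out an array and Tmem267 in 2, but Rcn2 in 6. This Rcn2 probe set is not the gene's brightest, and the brightest did not pass. By their brightest probe sets no gene of the calcium buffering list, which holds Rcn2, was above 0.13 in cerebellum. Slc15a2, a peptide transporter, changed by 2.38 and 2.67 in the 2 tissues (1 of those 6 fits in cerebellum), Msi2, an RNA-binding protein of neural stem cells, by 2.30 and 2.14, and Nxpe4 by 2.07 and 1.69. Taf15, an RNA-binding protein of the FET family, changed by 1.55 and 1.49, and Tm2d2 by 1.39 and 1.47.

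Rps4l and Etnppl were also higher in both tissues, and in them tg-/- was the group outside the other lines. Rps4l, a gene like the ribosomal protein gene Rps4x, read 228, 209 and 234 in tg-/- cerebellum, against 78.5, 85.4 and 103 in tg+/+ and 72.3 to 188 in the other lines. Its change was 1.31 (SE 0.24, adjusted p = 0.0111) in cerebellum and 1.94 in forebrain, and transcripts of near-identical ribosomal genes may be read by its probes. Etnppl, an astrocyte enzyme that degrades phosphoethanolamine and was picked out after its values were seen, read 1264, 1380 and 1379 in tg-/- and 516, 627 and 657 in tg+/+ cerebellum, with 206 to 832 in the other lines. It changed by 1.16 in cerebellum (adjusted p = 0.0224) and 1.04 in forebrain, and passed in none of the 6 fits without 1 array.

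Among the 13 probe sets lower in both tissues, 3 were of Gabra2, a GABA-A receptor alpha subunit. The first read 47.7, 69.5 and 79.6 in tg-/- cerebellum, against 244, 289 and 223 in tg+/+ cerebellum. In forebrain it read 129, 147 and 124 in tg-/- mice, against 400, 400 and 457 in tg+/+ mice. The genotypes did not overlap in either tissue. The 3 probe sets changed by -1.92, -1.83 and -1.71 in cerebellum and by -1.63, -1.27 and -1.47 in forebrain, in the same probe set order. In the other lines the first ran from 52.9 to 273, so that neither tg group was outside them. Wdfy1, an endosomal protein, changed by -1.41 and -1.24 in cerebellum with 2 probe sets (-1.59 and -1.49 in forebrain), and its remaining one changed by -1.03 in cerebellum. The first of these held in all 6 fits without 1 array and the other 2 in none. Cuedc1 changed by -1.87 and -1.97 in the 2 tissues, and the noncoding C130071C03Rik by -1.08 and -1.68. The cerebellar call of Cuedc1 held in none of the 6 fits without 1 array and was lost with quantile normalization and with no intensity trend, and that of C130071C03Rik held in 1 of 6.

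Itgb1bp1, a regulator of beta1 integrin, read 382, 340 and 357 in tg-/- cerebellum, against 940, 846 and 868 in tg+/+ and 514 to 883 in the other lines. The 3 tg-/- arrays were thus the lowest of all 18. It changed by -1.29 in cerebellum (SE 0.16, adjusted p = 0.000388) and by -0.61 in forebrain. Ptp4a2, a prenylated tyrosine phosphatase, showed opposite calls. One probe set read 319, 328 and 370 in tg-/- and 822, 886 and 894 in tg+/+ cerebellum, a change of -1.35. Another read 887, 802 and 883 in tg-/- and 505, 572 and 554 in tg+/+ cerebellum, a change of 0.65. Both passed in all 6 fits without 1 array, so the gene as a whole has no direction on this array.

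**Figure D4:**
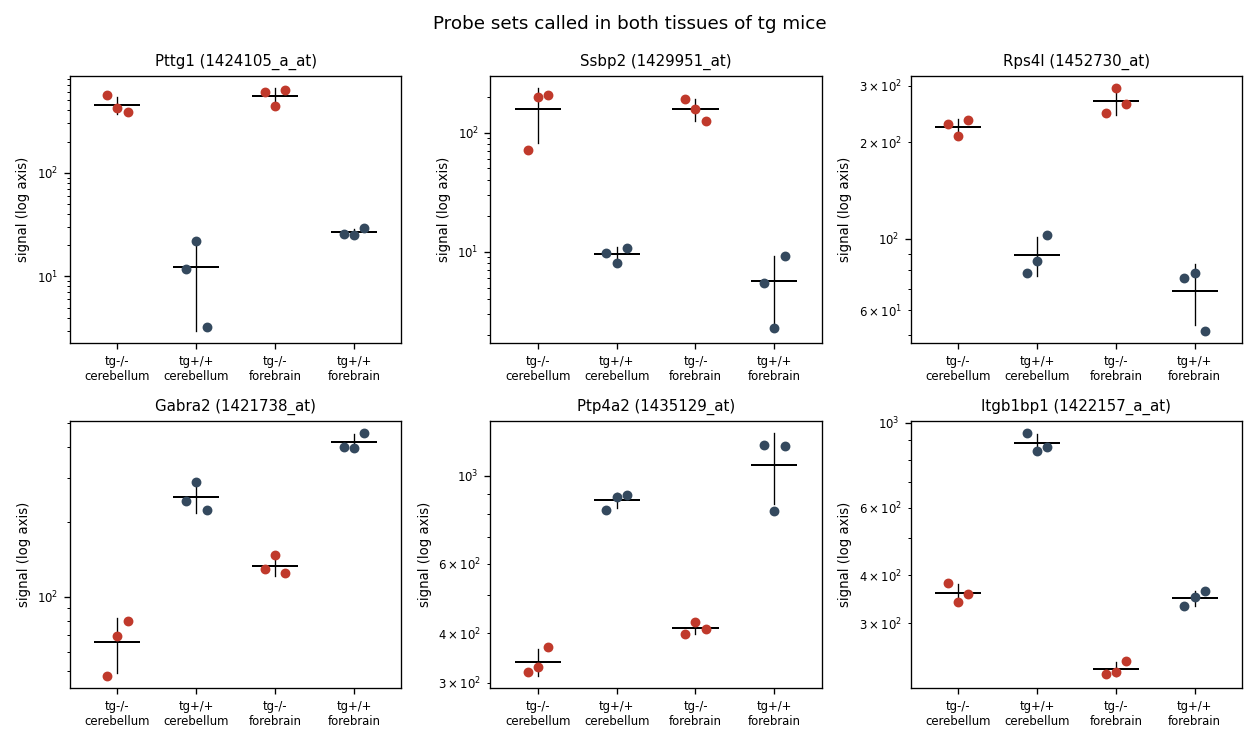
Signal of each array (points, log axis) for 6 probe sets called in both tissues, with mean (bar) and SD (line) of 3 arrays, in tg-/- and tg+/+ cerebellum and tg-/- and tg+/+ forebrain. Pttg1, Ssbp2 and Rps4l are higher, and Gabra2, Ptp4a2 and Itgb1bp1 lower, in tg-/- mice in both tissues, with no overlap between genotypes.

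Disagreement between probe sets of a gene was common. Of the 155 called probe sets, 84 had other tested probe sets of the same gene. In 45 of these another changed at least 0.5 times as much in the same direction, and in 39 none did. In 2 another was called in the opposite direction, which is the Ptp4a2 pair. A call on a single probe set is a statement on the stretch of transcript that it covers.

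Of the 111 probe sets in neither class, 66 were higher and 45 lower in tg-/-, and the 85 named ones stand for 82 genes. Several of the largest changes had a forebrain change of like size that did not pass there. Sspn read 160, 155 and 140 in tg-/- and 27.9, 33.2 and 16.8 in tg+/+ cerebellum, a change of 2.46 (SE 0.36, adjusted p = 0.00207), with 2.13 in forebrain just outside the threshold (adjusted p = 0.0505). Paip1, which stimulates translation through the poly(A)-binding protein, read 16.2, 23.03 and 13.4 in tg-/- and 407, 467 and 361 in tg+/+ cerebellum. It changed by -4.36 in cerebellum and by -3.68 in forebrain (adjusted p = 0.157), and its cerebellar call held in none of the 6 fits without 1 array. Fars2, the mitochondrial phenylalanyl-tRNA synthetase, was at 2.04 and 1.99, and the kinase gene Mapk14 at -2.31 and -2.74. Glo1, which detoxifies methylglyoxal, changed by -1.24 and -1.06 in its 2 called probe sets and was at -1.02 and -0.95 in forebrain, and these calls held in 0 and 2 of the 6 fits. Kcnj9, a GIRK potassium channel subunit, changed by -1.83 and was at -1.04 in forebrain (adjusted p = 0.0858), and Gnb1, a G protein beta subunit, was at -1.60 and -1.62. The cerebellar calls of Kcnj9 and Gnb1 held in 2 of the 6 fits each and that of Mapk14 in 4.

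Rec8, a meiotic cohesin subunit, had the largest change of this class. It read 119, 142 and 161 in tg-/- cerebellum, against 1.11, 1.25 and 3.54 in tg+/+ cerebellum. The tg+/+ signals lie near the added constant, so the size of its change (4.88, SE 0.97, adjusted p = 0.0223) depends on it, and it passed in none of the 6 fits without 1 array. Mtrex, a helicase of the RNA exosome, was near the floor in tg-/- instead, with 0.835, 9.58 and 2.45, against 80.9, 120 and 108 in tg+/+ cerebellum, a change of -4.04. It stayed above the filter in only 3 of the 6 fits without 1 array, and passed in those. Ccnb1ip1, a ubiquitin ligase of meiosis, read 1.49, 2.40 and 3.27 in tg-/- and 29.8, 52.0 and 55.1 in tg+/+ cerebellum, a change of -3.15 that passed in all 6 fits without 1 array. For the stress kinase Mapk13 the other lines ran from 4.94 to 425, against 59.9, 31.1 and 45.2 in tg-/- and 16.3, 3.96 and 8.19 in tg+/+. Its call held in 2 of the 6 fits without 1 array and was lost with a constant of 16. Rec8, Mtrex, Ccnb1ip1 and Mapk13 were below the filter in forebrain.

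A smaller set in this class was close to 0 in forebrain, without passing the test between tissues. Hrk, a BH3-only promoter of cell death singled out after its values were seen, read 144, 149 and 201 in tg-/- cerebellum, against 46.8, 53.8 and 55.5 in tg+/+ cerebellum. Forebrain gave 187, 162 and 148 in tg-/- mice and 168, 177 and 136 in tg+/+ mice, with the groups overlapping. The change was 1.59 in cerebellum (SE 0.26, adjusted p = 0.00536) and 0.05 in forebrain, and the difference of 1.55 just missed (adjusted p = 0.0639). In lh-/- cerebellum Hrk averaged 142 ± 17.95 and in lh+/+ 45.3 ± 20.3, the same pattern as in tg. Gng4, a G protein gamma subunit, read 160, 166 and 216 in tg-/- and 39.3, 64.6 and 62.5 in tg+/+ cerebellum, a change of 1.67 that was at -0.06 in forebrain and passed in none of the 6 fits without 1 array. Uchl1, a neuronal deubiquitinase also singled out afterwards, read 711, 698 and 830 in tg-/- and 405, 388 and 373 in tg+/+ cerebellum, a rise of 0.93 (SE 0.14, adjusted p = 0.00242) that was at 0.19 in forebrain. Akap1, which anchors protein kinase A at mitochondria, changed by -1.07 and -0.85 in 2 probe sets and was at -0.13 and -0.19 in forebrain. Its second call held in none of the 6 fits without 1 array.

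Genes of the calcium channel itself and of the main cerebellar neurons showed few calls. Of 17 measured voltage-gated calcium channel subunits none passed (median 0.02, all between -0.24 and 0.76). The same was true of 17 Purkinje cell genes (median 0.02), 20 glutamate receptor genes (median 0.03), 24 genes of the release machinery (median -0.11) and 22 of calcium buffering, release and extrusion, each gene being represented by its brightest probe set (limma, adjusted p 0.05). At an unadjusted p under 0.05 the counts in these 5 lists were 3, 3, 1, 5 and 4, with the 3 calcium channel genes (Cacna1d, Cacna1e and Cacnb1) above 0 and the 5 release genes, among them Snap25 and Syt2, below 0. Over all 12201 genes 8.25% passed at that unadjusted p, 4.69% above 0 and 3.57% below. A dimmer Rcn2 probe set was the one called in that last list. Over all 12201 genes tested so, 41 rose and 24 fell (0.533%). In 22 sodium, potassium and HCN channels Kcnj9 alone passed, as a fall, and 7 of 22 were above 0. At an unadjusted p under 0.05 there were 5 of 22, 1 above 0 and 4 below. Of 18 genes described earlier in the cerebellum of calcium channel mutants Th and Tac1 rose and the others did not pass by their brightest probe set. Among these were Calb2 (calretinin) at -0.42 (adjusted p = 0.345), Calb1 (calbindin) at 0.02, Npy at -0.01 and Ryr1 at -0.19. A dimmer probe set of Gabra6, also in this list, passed as a fall of -0.50. At an unadjusted p under 0.05 there were 5 of 18, with Th and Tac1 above 0 and Gabra6, Calb2 and Bdnf below.

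Granule cell genes gave 0 calls among 19 represented by their brightest probe set, with a median of -0.08, and 6 of 19 were above 0. At an unadjusted p under 0.05 there were 4 of 19, 2 above 0 and 2 below, where 8.25% of all genes were. Their summed signal was 48711 to 52020 in tg-/- and 52090 to 55628 in tg+/+ cerebellum, without overlap. The sum weighs bright genes most, and these did not move together. Gabra6 by its brightest probe set read 6343 to 7200 in tg-/- and 7941 to 9171 in tg+/+ cerebellum. Cbln3 went the other way, with 5499 to 6542 in tg-/- and 4508 to 5155 in tg+/+ cerebellum. The sum is therefore no measure of the cell type as a whole. In bulk tissue fewer cells of a type and less RNA per cell cannot be told apart. Gabra6 had a second probe set that passed. It read 2953, 2430 and 2623 in tg-/- cerebellum, against 3924, 3606 and 3762 in tg+/+ cerebellum, which is -0.50 on the log2 scale (SE 0.08, adjusted p = 0.00371), and the brighter probe set was at -0.34 (adjusted p = 0.0888). The same probe set averaged 1895 in stg-/- and 2979 in stg+/+, and 2650 in lh-/- and 3540 in lh+/+. Its mean was thus lower in the -/- group of each line, with the stg and lh differences not tested here. In the GABA list of 14 genes Gabra2 alone passed by its brightest probe set. At an unadjusted p under 0.05 there were 3 of 14, 1 above 0 and 2 below.

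Activity-regulated genes, which neurons induce within minutes of firing, had the lowest median of the lists with 4 or more measured members. Of 21 measured, 7 were above 0 and the median was -0.21, against 0.00 over all genes, and in forebrain it was -0.39. At an unadjusted p under 0.05 (limma) 8 of the 21 differed, 1 above 0 and 7 below, against 8.25% of all genes. The immediate-early gene Ier2 alone passed after adjustment, with 190, 182 and 177 in tg-/- and 256, 390 and 316 in tg+/+ cerebellum, a change of -0.78 (adjusted p = 0.0359) that held in 1 of 6 fits without 1 array. The larger differences did not pass. The nuclear receptor genes Nr4a2, Nr4a3 and Nr4a1 were at -1.70 (adjusted p = 0.0733), -1.85 (0.141) and -1.35 (0.147), and Fos at -1.22 (0.21). Fos averaged 793 in tg-/- and 1843 in tg+/+ cerebellum with no overlap.

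Glial and immune lists had 0 to 2 calls each. Among 19 astrocyte and Bergmann glia genes, Fabp7, a fatty acid binding protein of Bergmann glia, fell and Gjb6, the gap junction protein connexin 30, rose. At an unadjusted p under 0.05 (limma) 7 of the 19 differed, 6 above 0 and 1 below, against 8.25% of all genes. Fabp7 read 745, 429 and 503 in tg-/- cerebellum, against 1273, 1270 and 1297 in tg+/+ cerebellum and 780 to 1553 in the other lines. These 3 arrays were the lowest of all 18, and the change was -1.23 (SE 0.22, adjusted p = 0.0111), held in 2 of 6 fits without 1 array, those without tg-/- or tg+/+ replicate 1. Gjb6 read 914, 956 and 850 in tg-/- and 671, 584 and 607 in tg+/+ cerebellum, a change of 0.55 that held in none of those fits. Of 12 microglia genes C1qc, a chain of complement C1q, rose, with 138, 119 and 125 in tg-/- and 55.1, 70.2 and 47.5 in tg+/+ cerebellum, a change of 1.12 (SE 0.18, adjusted p = 0.00539). It passed in all 6 fits without 1 array. It did not pass on the tg arrays of the second series of records alone, which leaves out replicate 1 of each genotype (limma, adjusted p = 0.0987). All 12 were above 0 with a median of 0.40, against -0.01 in forebrain, but the other chains C1qa and C1qb were at 0.20 and 0.29 without passing. At an unadjusted p under 0.05 (limma) 3 of the 12 differed, all above 0. The summed microglia signal was 2134 to 2398 in tg-/- and 1814 to 1932 in tg+/+ cerebellum. Oligodendrocyte, endothelial, zebrin-band, interneuron, stress, glucocorticoid, circadian and interferon genes gave no call (limma, adjusted p 0.05). At an unadjusted p under 0.05 the first 4 lists had 3 of 17, 1 of 13, 1 of 10 and 3 of 10. The last 4 had 1 of 14, 4 of 14, 5 of 16 and 0 of 12, against 8.25% of all genes. The 4 glucocorticoid genes were all above 0, and of the 5 circadian genes 3 were above 0 and 2 below. Summed glucocorticoid signal was 12018 to 13043 in tg-/- and 9475 to 10246 in tg+/+ cerebellum, without overlap. Such sums weigh bright genes most, and some other lists had sums without overlap that were lower in tg-/-. Release machinery summed to 35186.5 to 37639 in tg-/- and 38627 to 40959 in tg+/+ cerebellum. Sodium, potassium and HCN channels summed to 19529 to 20421 in tg-/- and 22229 to 23392 in tg+/+ cerebellum. Choroid plexus genes gave no call either, with a median of 0.51 and 0 of 11 at an unadjusted p under 0.05. Their sums overlapped (12990 to 15227 in tg-/- and 12334 to 13636 in tg+/+).

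Antigen presentation genes were the list with the highest median, 0.58, and all 11 measured were above 0 (forebrain median 0.38). At an unadjusted p under 0.05 (limma) 5 of the 11 differed, all above 0, against 8.25% of all genes. H2-K1, a class I heavy chain, read 417, 368 and 461 in tg-/- cerebellum, against 74.5, 68.1 and 62.2 in tg+/+ cerebellum, a change of 2.55 (SE 0.46, adjusted p = 0.01004) with 2.60 in forebrain. H2-Aa, a class II chain, changed by 1.73. Their calls held in 3 and 0 of the 6 fits without 1 array. For H2-D1 the probe sets opposed each other: the brightest was at 4.35 without passing (adjusted p = 0.139), and another changed by -2.64, with 6.13, 9.35 and 20.1 in tg-/- and 91.6, 85.0 and 72.7 in tg+/+ cerebellum. H2-Bl, a further class I gene, changed by -1.82 (2 of 6 fits). These genes are near-identical copies and differ in sequence between mouse strains, so which copy a probe set reads is uncertain. The sums of the list were 3105 to 3504 in tg-/- and 1336 to 1886 in tg+/+ cerebellum, and 2487 to 2620 in tg-/- and 1537 to 1884 in tg+/+ forebrain.

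**Figure D5:**
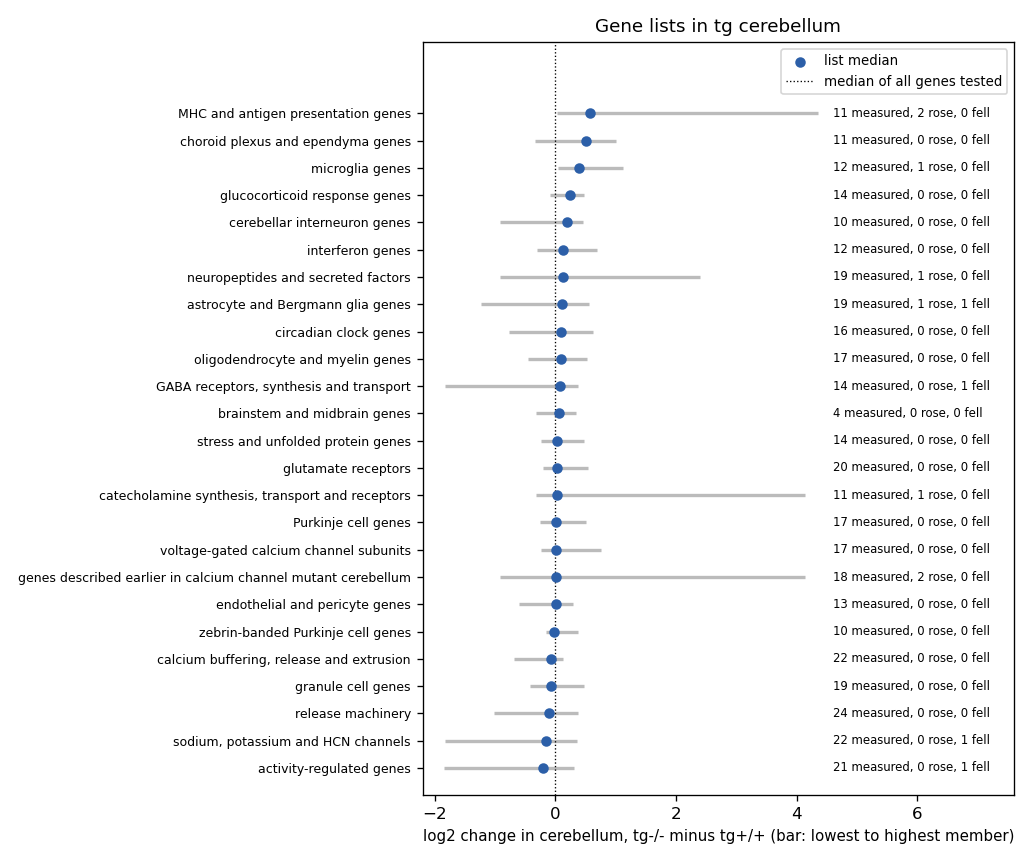
Log2 change in tg-/- minus tg+/+ cerebellum of the gene lists with 4 or more measured members. Points are list medians, bars run from the lowest to the highest member, the dotted line is the median of all genes tested, and the text gives how many members rose or fell. Antigen presentation genes have the highest median (0.58) and activity-regulated genes the lowest (-0.21).

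Many called genes had other called genes near them in the genome. Of the 107 called genes 78 (72.9%) had another called gene within 10 Mb, against 45.7% of 12151 tested genes with a position, and 47.7% had at least 3, against 12.5%. The share with a called neighbour was 77.3% for the 22 genes called in both tissues, 72.2% for the genes in neither class and 66.7% (4 of 6) for those with a tissue difference. Th and Tac1 had none. Genes are named here whatever the rule for naming. A run chains called genes at most 10 Mb apart and is counted from its first to its last called gene. Its share of calls is therefore raised by how it is drawn. Over all 12151 tested genes with a position 107 were called. In a run of 18 tested genes, 6 were called: Mtrex, Nnt, Paip1, 4833420G17Rik, Tmem267 and Hmgcs1. In another of 13 tested genes, 5 were called: Gabra6, Pttg1, Ebf1, Lsm11 and Thg1l. A run of 224 tested genes with 11 called included Glo1, Mapk13, Mapk14, Vps52 and the 4 H2 genes. The longest, of 264 with 12 called, included Stmn1, C1qc, Ptp4a2, Gnb1 and Sfpq. Nos1, Hrk and Dipk1a lay in 1 run, and F2r in a run of 6 called genes that included Ssbp2, Arsk and C130071C03Rik.

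Around Cacna1a 3 of 111 tested genes within 10 Mb were called (2.70%), against 0.864% of the other 12039. These were Ier2, Scoc and Zfp330, all lower in tg-/- mice. Scoc read 605, 635 and 564 in tg-/- and 954, 1032 and 1046 in tg+/+ cerebellum, and its call held in none of the 6 fits without 1 array. What part linked background plays in these calls was not tested.

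At the threshold, the weakest named call was 6820431F20Rik (-0.76, adjusted p = 0.0497), with Nnt, a mitochondrial transhydrogenase, at -0.57 (0.0489). Just outside were a second probe set of Zfp729a (-1.02, adjusted p = 0.0507) and a second of Gnb1 (-0.84, also 0.0507). Across 65 called probe sets named by the rule, 19 passed under every alternative that could be run and with each of the 6 cerebellar arrays left out. They were Th, Tac1, both F2r probe sets, Dipk1a, Stmn1, 2 of Gabra2, both of Ptp4a2, Itgb1bp1 and the dimmer Rcn2 probe set. The others were Msi2, Nxpe4, Tm2d2, Sspn, Fars2, Ccnb1ip1 and the called Gabra6 probe set.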

How the data were processed

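Total RNA was hybridised to 1-colour Affymetrix arrays. The values as deposited are linear signal intensity, 1 per probe set and array, and the sources used here do not say how the authors made them. They have a mean of 150.001 on every array after trimming 2% of probe sets at each end, and run from 0.0223 to 16805. From them log2(signal + 2.98) was computed, where 2.98 is the 10th percentile of all values. Array medians spanned 0.326, below the limit of 0.5, so no further normalization was applied. Control probe sets (64, marked AFFX) were dropped, and a probe set stayed in a fit if its mean exceeded the 40th percentile there.

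The comparisons used limma 3.58.1 (R 4.3.3, a mean per group, eBayes with intensity trend, two-sided, Benjamini-Hochberg at 0.05) on the 18 arrays of a tissue, or all 36 for the difference between tissues. The tg effect was also set against the mean of the stg and lh effects. The fits were tested on simulated data. Labels do not say that replicates are separate animals, so p-values measure the spread between these samples, and the number of arrays limits the precision. Deviations of same-numbered tg cerebellum arrays correlated at 0.292, 0.0404 and 0.244, and those of differently numbered ones at -0.306 to 0.159. The same-numbered value was the highest for replicates 1 and 3. For tg-/- replicate 2 the highest was with tg+/+ replicate 3. The labels name no pairs, so none were read, and whether same-numbered arrays share a batch was not tested.

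Names came from a platform table, in which 34958 probe sets had 1 symbol, 932 several and 9211 none, and 34754 matched GRCm38.p6 by Entrez ID. That assembly gave only names, neighbours and promoter windows. Named genes were Cacna1a, the 12 largest changes per class and direction, called list members (up to 6), 2 whole lists, genes with several called probe sets or opposing probe sets, and those at the threshold. Members and lists were chosen with earlier results of these data known. The alternatives were quantile normalization, keeping all probe sets or only those above the 60th percentile, constants of 1 and 16, no intensity trend, array weights, blocks for replicate and for line and series, the 6 arrays alone, the tg arrays of the second series alone, and each array left out. The labels name no series. The records run through forebrain and cerebellum and then through both again, and each pass was taken as a series (20 and 16 arrays). In tg cerebellum the second series lacks replicate 1 of each genotype, so a call lost there may reflect fewer arrays, which was not tested.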

Additional observations from a re-analysis of the deposited data

Results flagged for a closer look

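The tg effect differed between cerebellum and forebrain in 7 probe sets by a direct test (limma, adjusted p 0.05). The differences, cerebellum minus forebrain on the log2 scale, were 4.11 for Th, 2.25 for Tac1, 0.93 for Nos1, -0.73 for Stmn1, -0.89 for Dipk1a, and -1.84 and -2.29 for the F2r probe sets.

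The tg effect differed from the mean of the stg and lh effects in cerebellum in 44 probe sets by the same kind of test. Among the named probe sets with a positive difference were Pttg1 (5.18 and 3.48), Rcn2 (2.65), Sspn (2.52), Fars2 (2.48), Th (2.32), Nxpe4 (2.23), Msi2 (2.20), Akr1e1 (1.91), Tm2d2 (1.57) and Zfp24 (0.65). Negative differences were found for Dipk1a (-0.68), Stmn1 (-0.70), Itgb1bp1 (-1.26), Wdfy1 (-1.42), Ptp4a2 (-1.45), Gabra2 (-1.90 and -2.005), F2r (-2.11 and -2.42), Ccnb1ip1 (-2.72) and Mtrex (-4.08). In Ptp4a2 and Dipk1a the tg+/+ arrays were the ones away from the stg and lh levels. What causes any of these differences was not tested.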

How the results depend on the processing

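None of the 65 named calls changed sign, while 17 of the 29 named probe sets that were not called did under 1 or more settings. The 155 calls in cerebellum, 51 in forebrain, 7 for the tissue difference, 37 in both tissues and 44 against the other lines stayed within 1.5 times their number with quantile normalization, with all probe sets or only those above the 60th percentile, and with constants of 1 and 16. With no intensity trend forebrain gave 27, both tissues 12 and the comparison of lines 23. Array weights gave 390, 117, 19, 68 and 123 in the order above. A replicate block gave 429 in cerebellum and 225 against the other lines, and all 155 calls passed with it. The labels name no pairs, so the block was not read as a paired design, and a batch shared by same-numbered arrays was not tested. A block for line and series of records gave 287 and 117, and the tg arrays of the second series alone gave 57. Leaving out 1 array gave 63 to 116 calls in cerebellum, 13 to 36 in forebrain, 3 to 8 for the tissue difference, 10 to 30 in both tissues and 18 to 52 against the other lines. The fits without 1 array also have fewer samples, and the cause of these shifts was not tested. Of the 37 calls in both tissues 20 passed in cerebellum whichever cerebellar array was left out, of the 7 with a tissue difference 6, and of the 111 others 21. Signals near the constant of 2.98 have no reliable size of change, and no detection calls were used.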
